A study of Danio rerio with 2 samples.

Results

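The 200 genes described here were selected on their measured values, as the genes furthest below their level in the remaining larval cells among those that could still be measured in GFP(+) cells of zebrafish larvae. Of 17668 genes in the table, 2573 had a value of at least 1000 in GFP(−) cells, 2527 of these also had a value above 48 in GFP(+) cells, and the 200 with the lowest GFP(+) to GFP(−) ratio were kept. Because that ratio chose the genes, their folds are given as a description and no test was made of them.

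Both populations came from larvae of the Ppv3b-GFP line at 5 dpf (days post fertilization), whose transgene, named ppv3b:GFP, puts GFP mainly, but not solely, in hair cells (HCs). GFP(+) cells were the sorted hair cell fraction, and GFP(−) cells were the other cells of the same dissociated larvae. RNA was sequenced from 1 library of each population, so no value below has a replicate and no difference has a replicate check. GFP(−) cells are a mixture, and the labels do not say which other tissues of the larva they hold or in what parts. This limits what a ratio to them can show. In such bulk samples fewer cells of a type and less RNA per cell cannot be told apart.

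HCs are the mechanosensory cells of the inner ear and of the lateral line, and in larvae they are a small part of the body. The larval body also contains organs whose cells devote much of their messenger RNA to a few secreted proteins or pigments. Acinar cells of the exocrine pancreas make digestive zymogens, hepatocytes make the proteins of the blood plasma, erythrocytes make globin, and photoreceptors make opsin. Transcripts of this kind are largely restricted to their own tissue.

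The labels were checked against marker genes first. Of 29 measured HC markers, 27 had a higher value in GFP(+) cells, with a median log2 ratio of 3.40, and none was among the 200 genes. Over all 17668 genes 8385 were higher in GFP(+) cells, with a median log2 ratio of −0.10. The HC marker list held 0.579% of the GFP(+) total, against 0.0376% of the GFP(−) total. Of 32 markers of the superficial epidermis 26 were also higher in GFP(+) cells, with a median log2 ratio of 3.64, and this list held 10.8% of the GFP(+) total, against 1.03% of the GFP(−) total. Both marker lists were drawn up with earlier results of these data known, so this check of the labels is not independent of them. The part of skin cells in the shares given below was not tested.

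The values are read counts that were quantile normalized, so the libraries have identical value sets and an identical total of 19035170.5. They count reads per gene and are not divided by gene length. The order in which tied genes stand in the table allowed whole reads to be worked out for values up to 426.5, which covers 12309 ranks and 791 steps between values, with 0 breaks that the scheme leaves unexplained. In GFP(+) cells the 3741 lowest genes, 21.2% of all genes, shared the floor of 20 reads, and they carried values up to 52.5 because their ranks were filled with the mean of both libraries. A limit of 48 therefore does not clear the floor. Of the 200 genes, 25 had a GFP(+) value of 48.5 and 1, STC2 (2 of 2), had 51, all of which stand for 20 or fewer reads. For these 26 genes the fold below is a bound against 52.5 and is written as "at least".

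Above the floor, 141 of the 200 genes had recovered GFP(+) reads, from 21 to 305 with a median of 60, and 56 of them had fewer than 50 reads. The other 33 had GFP(+) values too high for recovery. Equal values did not stand for equal reads in the libraries. A value of 100 stood for 51 reads in GFP(+) cells and for 149 reads in GFP(−) cells, and a value of 426.5 for 314 reads in GFP(+) cells and 539 reads in GFP(−) cells. Per unit of value the GFP(+) reads were thus 0.51 at 100 and 0.736 at 426.5, so a low GFP(+) value rests on fewer reads than its size shows.

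**Figure D1:**
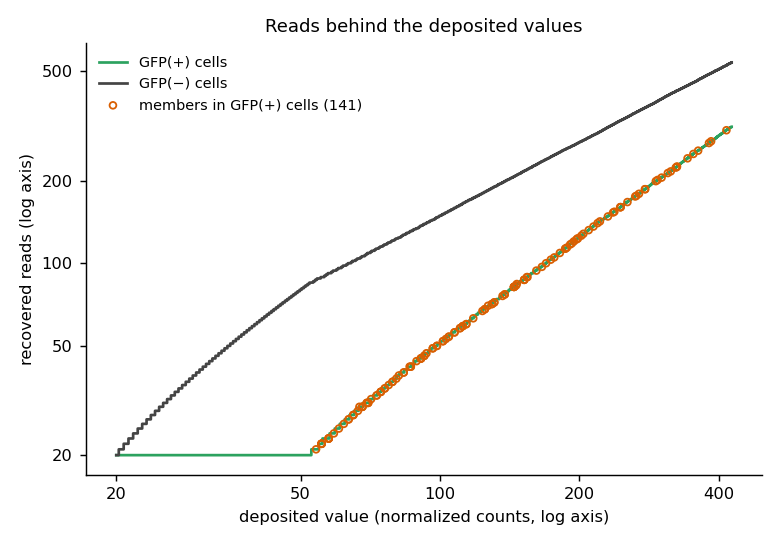
Whole reads (vertical, log axis) behind each deposited value (horizontal, log axis) in GFP(+) cells (green) and GFP(−) cells (dark grey), with the 141 genes of the set whose GFP(+) reads were recovered as open orange circles. The green line lies flat at 20 reads up to a value of 52.5, and at a value of 100 it stands at 51 reads, against 149 for GFP(−) cells.

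Together the 200 genes summed to 51842.5 in GFP(+) cells, which is 0.272% of the library, against 3446262 in GFP(−) cells, which is 18.1% of the library. The sum was 66.5-fold lower in GFP(+) cells. Every one of the 200 was at least 3-fold lower by the choice itself, whereas 16.4% of all 17668 genes and 31.6% of the 2573 genes with a GFP(−) value of at least 1000 were. Folds ran from 19.2 to 211 with a median of 35.0. They reached 100 for 12 genes and 50 for 55 genes.

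The sum was held by few genes. The 10 with the highest GFP(−) value made up 49.9% of the GFP(−) sum of the 200, the first 20 made up 66.6% and the first 50 made up 83.8%. Only 1 of the 200, APOA1 (1 of 2), which encodes the main protein of high-density lipoprotein, was among the 1000 highest genes of GFP(+) cells, at rank 711. In GFP(−) cells 30 of the 200 were among the 100 highest genes and 10 were among the 20 highest.

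**Figure D2:**
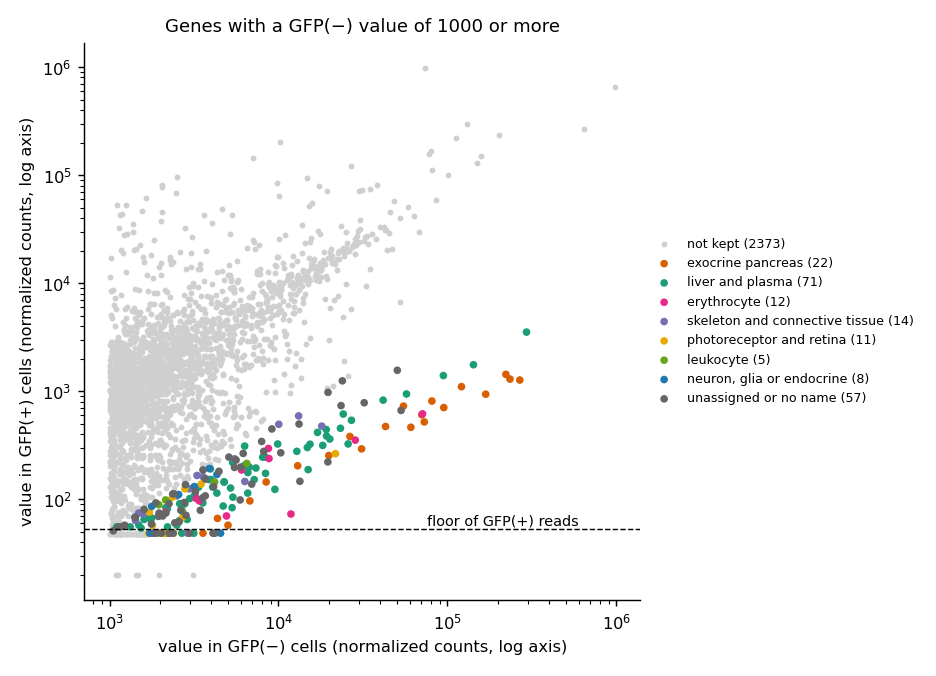
Value in GFP(+) cells (vertical, log axis) against value in GFP(−) cells (horizontal, log axis) for the 2573 genes with a GFP(−) value of at least 1000; the 200 kept genes are coloured by tissue class and the others are grey. The orange exocrine pancreas genes run along the lower right edge, up to 267938 in GFP(−) cells at a GFP(+) value of 1268, and 26 kept genes lie under the dashed line at 52.5.

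Gene names were used to sort the 200 genes into tissue classes. A name was found for 185 of them, and 143 received a tissue class, of which liver and plasma was the most numerous with 71 genes. The exocrine pancreas had 22 genes, skeleton and connective tissue 14, erythrocytes 12, photoreceptors and retina 11, and leukocytes 5. Neurons had 4 genes, and endocrine cells and glia 2 each. A further 42 named genes were left without a class and 15 had no name. A name does not always point to 1 gene: 23 names in the set were also carried by 24 genes outside it, of which 5 were higher in GFP(+) cells.

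The classes differed in their place along the ranking. Of the 22 exocrine pancreas genes 21 stood among the first 50, whereas 11 of the 14 skeleton and connective tissue genes stood among the last 50. Liver and plasma genes were spread through the ranking, with 15 among the first 50 and 8 among the last 50. All 12 erythrocyte genes lay within the first 150.

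**Figure D3:**
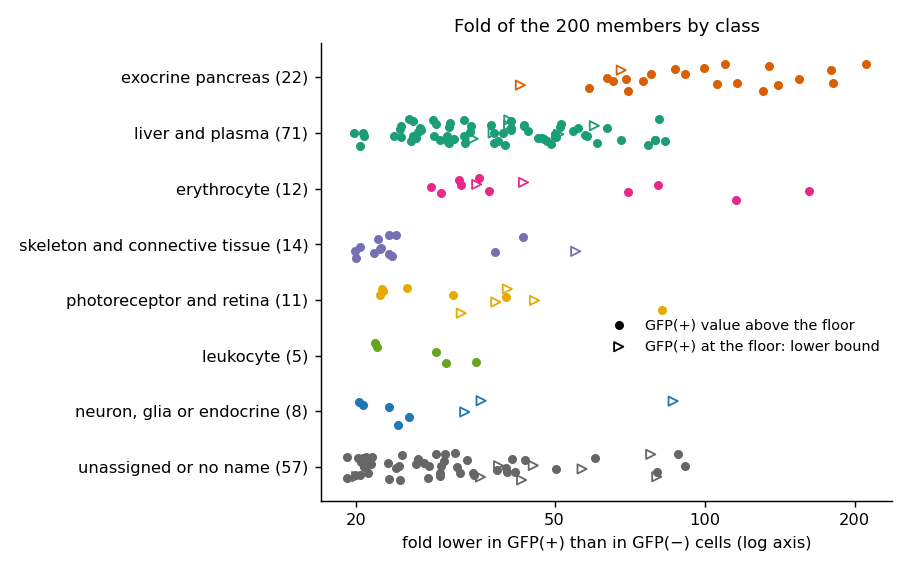
Fold by which each of the 200 genes was lower in GFP(+) than in GFP(−) cells (horizontal, log axis), in rows by class; filled dots have a GFP(+) value above the floor, and open triangles mark the 26 genes at the floor, drawn at their lower bound. Exocrine pancreas genes reach 211-fold, and most skeleton and connective tissue genes lie near 20-fold.

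The exocrine pancreas held the largest share of the GFP(−) total of any class. Its 22 genes made up 0.0627% of the GFP(+) total, against 8.47% of the GFP(−) total, and their sum was 135-fold lower in GFP(+) cells. In GFP(+) cells liver and plasma held more, at 0.103%. Within the class 11 serine proteases alone held 0.0484% of the GFP(+) total, against 7.13% of the GFP(−) total. These enzymes are stored as inactive zymogens and cut dietary protein in the gut.

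The trypsin gene prss59.2 had the lowest ratio of all, with 1268 in GFP(+) cells and 267938 in GFP(−) cells, a fold of 211. The trypsin gene prss1 had 1294.5 in GFP(+) cells and 234422.5 in GFP(−) cells, which is 181-fold lower. A further trypsin gene, prss59.1, had 1101 in GFP(+) cells and 121101.5 in GFP(−) cells, a fold of 110. By rank of value the 3 stood at 2016, 1984 and 2337 in GFP(+) cells, against 4, 5 and 13 in GFP(−) cells. Another gene of the family, prss59 (ENSDARG00000076602), was not lower, with 578.5 in GFP(+) cells and 406 in GFP(−) cells.

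Chymotrypsins and elastases, which cleave next to other residues than trypsin, followed closely. CELA1, a pancreatic elastase, had 938 in GFP(+) cells and 168403.5 in GFP(−) cells, a fold of 180. The chymotrypsinogen gene ctrb.1 had 1432 in GFP(+) cells and 221762.5 in GFP(−) cells, which is 155-fold lower. The elastase genes ela2 and ela3l were 140-fold and 116-fold lower, with 519.5 and 605.5 in GFP(+) cells and 72920 and 70492 in GFP(−) cells. The chymotrypsin-like gene ctrl had 463.5 in GFP(+) cells and 60743 in GFP(−) cells (131-fold), and ela2l had 810.5 in GFP(+) cells and 80887 in GFP(−) cells (99.8-fold). The copies of these families resemble each other in sequence, so reads may have been divided between prss59.1 and prss59.2 or between elastase copies in a way that the table does not show.

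Enzymes of the acinar cell that act on other substrates were low as well. Carboxypeptidases trim single amino acids from the ends of peptides, and CPA1 (ENSDARG00000021339) had 705 in GFP(+) cells and 95112.5 in GFP(−) cells, a fold of 135. CPB1, a carboxypeptidase for basic residues, had 471 in GFP(+) cells and 43019.5 in GFP(−) cells, a fold of 91.3. For starch, the amylase gene amy2al2 had 292.5 in GFP(+) cells, or 199 reads (95% Poisson interval 172 to 229), and 31031.5 in GFP(−) cells, a fold of 106. PLA2G1B, a secreted phospholipase, had 57.5 in GFP(+) cells against 5026 in GFP(−) cells, and its fold of 87.4 rested on 23 GFP(+) reads (14.6 to 34.5). These intervals cover counting error only.

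Across the 22 exocrine pancreas genes the values of the libraries rose together, and the log2 values correlated with a Pearson r of 0.985 over genes. The GFP(−) values spanned 119-fold and the deposited GFP(+) values 29.5-fold, the latter counted from a floor value. Over the 71 liver and plasma genes r was 0.957 and over the 12 erythrocyte genes it was 0.855. Genes at the GFP(+) floor were included: 2 of exocrine pancreas, 6 of liver and plasma and 2 of erythrocytes. These are descriptions: the genes share libraries, they are no replicates, and the choice by ratio itself binds the values together.

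Further acinar genes were lost to the limit on GFP(+) values rather than to their ratio. Of 26 genes on the exocrine pancreas list with a GFP(−) value of at least 1000, 21 were kept, 4 had a GFP(+) value at or under 48 and 1 had too high a ratio. The elastase gene cela1.4 was listed at 20 for GFP(+) cells, against 1959.5 in GFP(−) cells. Another copy of CEL (ENSDARG00000029822), the bile salt-activated lipase, had 48 in GFP(+) cells against 1608.5 in GFP(−) cells, and loc100334908 had 20 in GFP(+) cells and 1483 in GFP(−) cells.

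Liver and plasma was the broadest class. Its 71 genes made up 0.103% of the GFP(+) total, against 5.77% of the GFP(−) total, and their sum was 55.8-fold lower in GFP(+) cells. A few lipoprotein genes weighed most, since 6 apolipoproteins held 0.0336% of the GFP(+) total and 2.54% of the GFP(−) total. Apolipoproteins carry lipid in blood, and in young larvae they are also made by the yolk syncytial layer.

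APOA1 (1 of 2) had 3521.5 in GFP(+) cells and 293774.5 in GFP(−) cells, which made it the third highest gene there, and was 83.4-fold lower in GFP(+) cells. The gene apoa2, for another protein of high-density lipoprotein, had 1757.5 in GFP(+) cells and 142539.5 in GFP(−) cells, a fold of 81.1. The fetuin gene fetub, a plasma inhibitor of proteases, had 1394.5 in GFP(+) cells and 94617.5 in GFP(−) cells, a fold of 67.9. These 3 had the highest GFP(−) values of the class.

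Blood clotting was covered by 10 genes, which together were 51.9-fold lower in GFP(+) cells. The fibrinogen subunits form 1 protein, the precursor of fibrin, and all 3 of their genes were in the set. FGB had 188 in GFP(+) cells and 14976.5 in GFP(−) cells (79.7-fold), fga had 361 in GFP(+) cells and 20130 in GFP(−) cells (55.8-fold), and FGG had 277.5 in GFP(+) cells and 12841 in GFP(−) cells (46.3-fold). PLG, the precursor of the enzyme that dissolves fibrin, had 123.5 in GFP(+) cells against 9525 in GFP(−) cells, and was 77.1-fold lower on 67 GFP(+) reads (51.9 to 85.1). Prothrombin (f2) had 104.5 in GFP(+) cells and 5373 in GFP(−) cells, a fold of 51.4, and PROC, the anticoagulant protein C, had 55.5 in GFP(+) cells and 1101 in GFP(−) cells, a fold of 19.8.

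Complement, the plasma cascade that marks and lyses microbes, had 9 genes in the set. Of these 5 were copies of component C3, whose cleavage is the central step. The copy c3a.1 had 442 in GFP(+) cells and 19168 in GFP(−) cells (43.4-fold) and c3a.3 had 173.5 in GFP(+) cells and 8381.5 in GFP(−) cells (48.3-fold). The copies c3b.1 and c3b.2 were 25.6-fold and 26.04-fold lower, and c3a.2 was at the floor in GFP(+) cells, against 1803 in GFP(−) cells, at least 34.3-fold lower. C3 copies may share reads as the trypsins may. The pore-forming component c9 had 415.5 in GFP(+) cells and 17022.5 in GFP(−) cells, a fold of 41.0.

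Plasma protease inhibitors and matrix-binding proteins numbered 9 and carriers and hormones 10. The antiprotease gene serpina1l had 325 in GFP(+) cells and 25830 in GFP(−) cells, a fold of 79.5. Transferrin (tfa), which carries iron, had 942 in GFP(+) cells and 57204.5 in GFP(−) cells, a fold of 60.7. Of the other carriers, GC binds vitamin D and was 37.8-fold lower, TTR binds thyroid hormone and was 32.9-fold lower, and CP is a copper-binding oxidase and was 47.2-fold lower.

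The liver and plasma class, read from gene names, also held genes of metabolism beside those of secreted proteins. PCK1 and G6PC1 encode enzymes of gluconeogenesis, by which the liver makes glucose. PCK1 had 614.5 in GFP(+) cells and 24166.5 in GFP(−) cells (39.3-fold), and G6PC1 had 209.5 in GFP(+) cells and 6399.5 in GFP(−) cells (30.5-fold). The liver enzymes of glycogen turnover, GYS2 and PYGL, were 39.7-fold and 29.4-fold lower, GYS2 on 22 GFP(+) reads (13.8 to 33.3). BHMT, which remethylates homocysteine, had 538 in GFP(+) cells and 27021 in GFP(−) cells, a fold of 50.2.

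Tyrosine breakdown entered the set with several steps. TAT, hpda and HGD, which act on tyrosine and its products in turn, were kept with folds of 30.5, 54.4 and 24.4. Some liver genes that were not kept had high values in both libraries. The selenoprotein gene selenop was 4.66-fold lower, with 5769.5 in GFP(+) cells against 26885.5 in GFP(−) cells, and ALDH6A1, of valine breakdown, was 3.24-fold lower, with 3408 in GFP(+) cells and 11042 in GFP(−) cells.

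**Figure D4:**
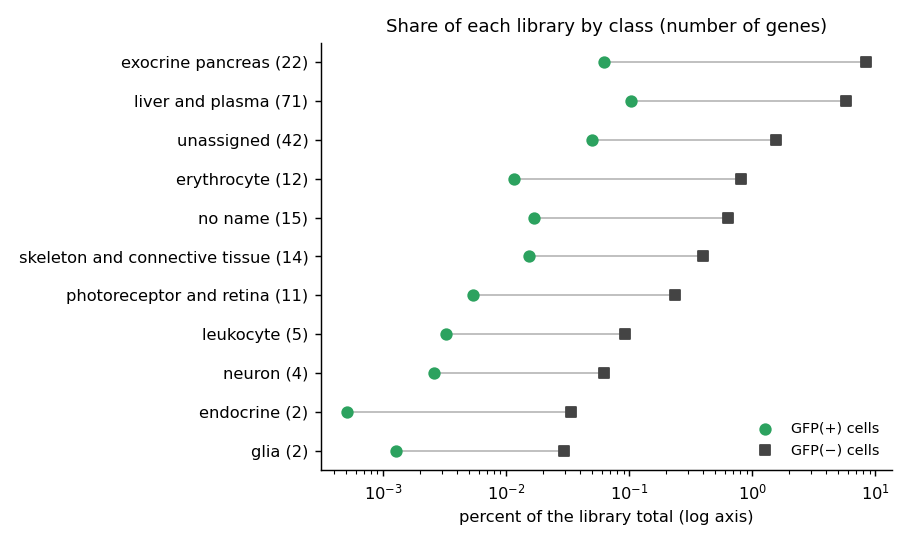
Percent of the library total (horizontal, log axis) held by the genes of each class in GFP(+) cells (green circles) and in GFP(−) cells (dark squares), with the number of genes in brackets. Exocrine pancreas stands at 0.0627% in GFP(+) cells, against 8.47% in GFP(−) cells, and liver and plasma at 0.103% in GFP(+) cells and 5.77% in GFP(−) cells.

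The 12 erythrocyte genes made up 0.0116% of the GFP(+) total, against 0.803% of the GFP(−) total, a 69.4-fold lower sum. Globins carry oxygen, and the 5 globin genes summed to 1187.5 in GFP(+) cells and 117197.5 in GFP(−) cells (98.7-fold). The alpha-type globin hbae3 had 617 in GFP(+) cells and 71190 in GFP(−) cells, a fold of 115. Of 2 genes named HBE1, an embryonic beta-type globin, ENSDARG00000045143 had 73.0 in GFP(+) cells against 11849.5 in GFP(−) cells, and ENSDARG00000087390 had 352.5 in GFP(+) cells and 28482.5 in GFP(−) cells. The folds were 162 on 33 GFP(+) reads (22.7 to 46.3) and 80.8 on 250 GFP(+) reads (220 to 283). Globin copies may also share reads, so the gap between these folds belongs to the counts as assigned.

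The other 7 erythrocyte genes belong to heme synthesis and to the membrane of red cells and were together 35.2-fold lower. The gene alas2, the first enzyme of heme synthesis in red cells, had 70.0 in GFP(+) cells and 4924.5 in GFP(−) cells, a fold of 70.3 on 31 reads (21.1 to 44.0). SLC4A1, the anion exchanger of the red cell membrane, had 238 in GFP(+) cells and 8788 in GFP(−) cells, a fold of 36.9. RHAG, a gas and ammonium channel of the same membrane, was 29.6-fold lower. Listed red cell genes that were not kept included ca2 (1108 in GFP(+) cells and 2552 in GFP(−) cells), CREG1 (799.5 in GFP(+) cells, against 2127.5 in GFP(−) cells) and epb41l3b (1200.5 in GFP(+) cells and 1325 in GFP(−) cells). These 3 are also used outside red cells.

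Photoreceptors and retina had 11 genes, at 0.00540% of the GFP(+) total and 0.235% of the GFP(−) total, a 43.6-fold lower sum. Cone opsins detect colour, and opn1lw2 had 68.0 in GFP(+) cells and 2714 in GFP(−) cells, a fold of 39.9 on 30 reads (20.2 to 42.8). The cone opsins opn1mw2 and OPN1SW were at the floor in GFP(+) cells, against 2393.5 and 1706 in GFP(−) cells, at least 45.6-fold and 32.5-fold lower. The arrestin gene ARR3, which ends the cone response, had 138 in GFP(+) cells and 3485.5 in GFP(−) cells, a fold of 25.3. The transcription factor genes NEUROD1 and crx were 22.5-fold and 31.2-fold lower. Both were placed in this class by name, so their reads need not come from photoreceptors alone.

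Of the 16 listed photoreceptor and retina genes with a GFP(−) value of at least 1000, 3 were at or under 48 in GFP(+) cells. GNAT2, the cone transducin, had 48 in GFP(+) cells against 1558.5 in GFP(−) cells, and rs1a, which holds retinal layers together, had 48 in GFP(+) cells and 1377.5 in GFP(−) cells. A copy of recoverin, a calcium sensor of photoreceptors, entered the set at the floor, RCVRN (ENSDARG00000019902) with 48.5 in GFP(+) cells and 2111.5 in GFP(−) cells. Another copy (ENSDARG00000009637) had 112 in GFP(+) cells and 1606.5 in GFP(−) cells, a fold of 14.3, and was not kept. A further gene of that name, ENSDARG00000059257, was at the floor in GFP(+) cells with a value of 50, against 141 in GFP(−) cells.

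Skeleton and connective tissue had 14 genes with 0.0153% of the GFP(+) total, against 0.402% of the GFP(−) total, and its sum was 26.2-fold lower. FN1 (ENSDARG00000006526), the fibronectin to which cells attach, had 475 in GFP(+) cells and 18033.5 in GFP(−) cells (38.0-fold). The other FN1 gene (ENSDARG00000019815) had 318.5 in GFP(+) cells and 3978.5 in GFP(−) cells (12.5-fold), and was not kept. COL5A1 and COL5A2 encode chains of a collagen that sets the width of fibrils. COL5A1 had 590.5 in GFP(+) cells and 13160 in GFP(−) cells (22.3-fold), and COL5A2 had 494 in GFP(+) cells and 10042.5 in GFP(−) cells (20.3-fold). NID1 (ENSDARG00000068710), a basement membrane linker, was 43.3-fold lower, whereas its copy ENSDARG00000060675 was 11.8-fold lower and not kept. The elastin gene elnb was at the floor in GFP(+) cells, against 2895 in GFP(−) cells, at least 55.1-fold lower. Cartilage contributed MATN1, epyc and hapln1a, at folds of 23.2, 19.97 and 19.9.

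More abundant collagens were not kept. COL1A1 (ENSDARG00000035809), a chain of the main collagen of bone and dermis, had 1384 in GFP(+) cells and 25860.5 in GFP(−) cells (18.7-fold). Its paralogue col1a1a had 6723 in GFP(+) cells and 52070 in GFP(−) cells (7.75-fold), and the cartilage collagen COL2A1 (ENSDARG00000069093) had 1885 in GFP(+) cells and 24519 in GFP(−) cells (13.01-fold). Of 58 listed connective tissue genes with a GFP(−) value of at least 1000, 11 were kept.

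The 5 leukocyte genes had a 28.03-fold lower sum, at 0.00328% of the GFP(+) total and 0.0919% of the GFP(−) total. Lysozyme (lyz), an antibacterial enzyme of myeloid cells, had 214.5 in GFP(+) cells and 6497 in GFP(−) cells, a fold of 30.3. The neutrophil protease gene npsn had 144.5 in GFP(+) cells and 4188.5 in GFP(−) cells, a fold of 29.0, and the granule peroxidase EPX had 77.5 in GFP(+) cells and 2698 in GFP(−) cells, a fold of 34.8. Leukocyte-listed genes that were not kept ran in both directions. The cathepsin ctsla had 21307 in GFP(+) cells and 25196.5 in GFP(−) cells (1.18-fold), ARG2 had 4005.5 in GFP(+) cells and 6259.5 in GFP(−) cells (1.56-fold), and MMP9, a matrix-degrading enzyme, had 911 in GFP(+) cells and 5700.5 in GFP(−) cells (6.26-fold). The chemokine gene cxcl18b had 314 in GFP(+) cells and 4598 in GFP(−) cells (14.6-fold lower), whereas mhc1zba, of the class I histocompatibility family, had 15107.5 in GFP(+) cells and 2305 in GFP(−) cells (6.55-fold higher).

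Hormone genes were few and at the floor. Growth hormone (gh1), made in the pituitary, stood for 20 or fewer reads in GFP(+) cells, with a value of 4541 in GFP(−) cells, and was at least 86.5-fold lower. Insulin (ins), of the pancreatic islet, likewise stood for 20 or fewer GFP(+) reads and was at 1870 in GFP(−) cells, at least 35.6-fold lower. Their GFP(+) shares are those of the floor and not of a detected transcript.

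Of nervous tissue, 4 neuron genes and 2 glia genes entered, all but GFAP with folds from 20.2 to 25.5. NPAS4, a transcription factor induced by neuronal activity, had 169.5 in GFP(+) cells and 4321 in GFP(−) cells (25.5-fold). The neuronal sodium pump subunit atp1a3a had 131 in GFP(+) cells and 3175 in GFP(−) cells (24.2-fold). GPM6A (ENSDARG00000004621), a membrane protein of growing axons, had 110.5 in GFP(+) cells and 2566.5 in GFP(−) cells (23.2-fold). The other GPM6A gene (ENSDARG00000055455) had 454.5 in GFP(+) cells and 7404.5 in GFP(−) cells (16.3-fold), and was not kept. FABP7, the fatty acid binding protein of radial glia, had 192.5 in GFP(+) cells and 3894.5 in GFP(−) cells (20.2-fold). GFAP, the intermediate filament of astroglia, was at the floor in GFP(+) cells, against 1734 in GFP(−) cells, at least 33.0-fold lower.

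The 42 named genes without a class made up 0.0496% of the GFP(+) total and 1.57% of the GFP(−) total. Highest among them was si:ch211-251b21.1, with 1561 in GFP(+) cells and 50508.5 in GFP(−) cells (32.4-fold). UCP1, a mitochondrial carrier, had 781.5 in GFP(+) cells and 32159 in GFP(−) cells (41.2-fold), and a gene named GAPDH, for a glycolytic enzyme, had 735.5 in GFP(+) cells and 23454.5 in GFP(−) cells (31.9-fold). With the lowest ratio, APOD (ENSDARG00000060350), a lipid-binding lipocalin, had 146.5 in GFP(+) cells and 13385.5 in GFP(−) cells (91.4-fold). The astacin protease gene c6ast4 had 221.5 in GFP(+) cells and 19600.5 in GFP(−) cells (88.5-fold), and the phosphate transporter SLC20A1 (ENSDARG00000020114) was at the floor in GFP(+) cells, against 4210.5 in GFP(−) cells, at least 80.2-fold lower. Both APOD and SLC20A1 have a second gene that was higher in GFP(+) cells. For APOD it was ENSDARG00000057437, with 13195 in GFP(+) cells and 355.5 in GFP(−) cells (37.1-fold higher), and for SLC20A1 it was ENSDARG00000010641, with 28482.5 in GFP(+) cells and 17557.5 in GFP(−) cells (1.62-fold higher). GATM and GAMT, the enzymes of creatine synthesis, were both present, at 29.5-fold and 23.2-fold.

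The 15 genes with no name made up 0.0168% of the GFP(+) total and 0.635% of the GFP(−) total. ENSDARG00000089963 had 663.5 in GFP(+) cells and 53162 in GFP(−) cells (80.1-fold). Another, ENSDARG00000014745, was at the floor in GFP(+) cells, against 4094.5 in GFP(−) cells, at least 77.99-fold lower. Their tissue cannot be read from the table.

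The set shows only the lower end of each tissue, so every measured gene of each class list was also counted. Of 43 exocrine pancreas genes 34 were at least 3-fold lower in GFP(+) cells, with a median log2 ratio of −5.99. The count was 125 of 172 for liver and plasma (median −3.34), 93 of 129 for skeleton and connective tissue (−2.86) and 63 of 112 for photoreceptors and retina (−1.79). For erythrocytes it was 18 of 38 (−1.47), for leukocytes 52 of 115 (−1.40) and for neurons 133 of 298 (−1.31). The cell cycle list, which is not a tissue, had 39 of 86 (−1.36), near those 3 lists. Over all 17668 genes the median log2 ratio was −0.10. Apart from cell cycle, these lists contain genes of the 200, and all are given as a description. Many listed genes were at the GFP(+) floor of 20 reads, so their ratios and 3-fold calls are not measured folds. They were 18 of 43 exocrine pancreas, 47 of 172 liver and plasma and 35 of 129 skeleton and connective tissue genes. For photoreceptors and retina they were 81 of 112, for erythrocytes 11 of 38, for leukocytes 47 of 115, for neurons 148 of 298 and for cell cycle 16 of 86.

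Skeletal muscle stood near the background of all genes, of which 16.4% were lower in GFP(+) cells by 3-fold or more and 16.9% were higher by 3-fold or more. Of 123 skeletal muscle genes 14 were at least 3-fold lower in GFP(+) cells and 18 at least 3-fold higher, with a median log2 ratio of −0.38. The muscle creatine kinase gene ckma had 478.5 in GFP(+) cells against 458 in GFP(−) cells, and ckmb had 487.5 in GFP(+) cells and 605 in GFP(−) cells. Of the 45 endothelium and 69 intestine genes none was kept, although 26 and 33 of them were at least 3-fold lower. Only 6 endothelium and 10 intestine genes had a GFP(−) value of at least 1000. At the GFP(+) floor were 45 of the skeletal muscle, 20 of the endothelium and 44 of the intestine genes.

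**Figure D5:**
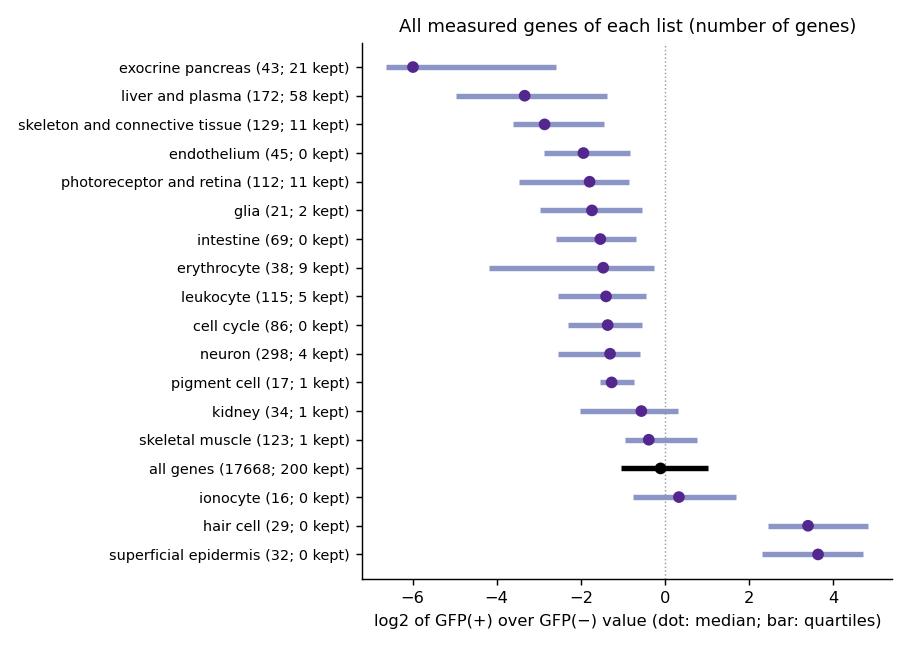
Median (dot) and quartiles (bar) of the log2 ratio of GFP(+) over GFP(−) value for all measured genes of each list with at least 10 genes; brackets give the genes measured and how many were kept by symbol match alone, before names were read by hand. Exocrine pancreas lies lowest with a median of −5.99, all genes together lie at −0.10 (black), and HC and superficial epidermis genes lie above 3. Genes at the GFP(+) floor are included.

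At the cut the ratios were continuous. The last genes inside were PROC (19.8-fold), si:ch1073-464p5.5 with 186.5 in GFP(+) cells against 3573.5 in GFP(−) cells, and ENSDARG00000077505 with 1246.5 in GFP(+) cells and 23883 in GFP(−) cells, both 19.2-fold lower. The first outside were DCN, a collagen-binding proteoglycan, with 229 in GFP(+) cells and 4386.5 in GFP(−) cells (19.2-fold), then COL1A2 with 1109.5 in GFP(+) cells against 21024 in GFP(−) cells, and SDR16C5 with 128 in GFP(+) cells and 2414.5 in GFP(−) cells, both 18.9-fold.

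The lower limit on GFP(+) values left out 46 genes that had a GFP(−) value of at least 1000. Highest was APOB, the scaffold protein of low-density lipoprotein, with 20 in GFP(+) cells and 3106.5 in GFP(−) cells, at least 59.2-fold lower. By class they comprised 19 unassigned genes, 7 of liver and plasma, 4 of the exocrine pancreas, 4 with no name, 3 each of intestine, neurons and photoreceptors, and 1 each of kidney, pigment cells and connective tissue.

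Genome position was compared by gene order in a later RefSeq assembly (GRCz12tu). Of the 200 genes 139 matched a protein-coding gene by symbol, and 9 pairs of them were direct neighbours. Most pairs were copies of 1 family, such as prss59.1 with prss59.2, c3a.2 with c3a.3, hbae1.3 with hbae3, and ela2l with ela2. The next 200 genes in the ranking had 0 such pairs among 112 matched genes, and the 200 with the highest ratio had 7 among 124.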

How the data were processed

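RNA-seq was measured in 1 GFP(+) and 1 GFP(−) library from 5 dpf larvae. The authors aligned reads to Zv9 with TopHat, counted reads per gene with HTSeq on Ensembl annotation, quantile normalized the libraries and applied a floor of 20 reads; the deposited signal values are these normalized counts. The stated order was normalization, then floor. Here tie order in the table was matched only by a floor applied first, and reads were recovered on that basis (tested on simulated data). Genes were ranked by the GFP(+) to GFP(−) ratio, ties by identifier. Names came from a gene name table (14593 of 17668 identifiers) or from the deposited symbols (969). The 20 class lists were matched by symbol stem, so they hold some unrelated genes. List patterns were trimmed and some classes and all roles were assigned by hand after the 200 genes had been seen. The genes and lists were chosen with earlier results of these data known.

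The named genes were the 25 with the lowest ratio that have a name, the 3 with the highest GFP(−) value in each class, the 3 on each side of the cut, and up to 3 listed genes per class that were not kept. Further genes of a complex or pathway were named after their values were seen. Values, not a model, were compared, because each population had 1 library. Poisson intervals (95%) used Python 3 with scipy. Alternatives to the limits, pseudocount and number kept were computed. The total per library is fixed by the normalization, so the sequencing depth is unknown.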

Additional observations from a re-analysis of the deposited data

How the results depend on the processing

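No paired analysis was possible because each population had 1 library. With no replicates and unknown depth, a count, share or median ratio was called moved when it changed by over 1.5 times. Of 98 recomputed values 72 stayed within that range and 26 moved, and the cause was not tested. The sign changed for 0, but counts and shares cannot change sign, and a pseudocount added to both values cannot reverse a ratio. Some values were also nearly fixed by the rule: with a GFP(−) minimum of 500 the same 200 genes were kept. With the GFP(+) limit raised to above 100, 116 of the 200 genes were kept, and the classes held 47 liver and plasma, 6 erythrocyte, 5 photoreceptor and retina and 28 skeleton and connective tissue genes. With no lower limit and GFP(+) values of 48 or less set to 48, skeleton and connective tissue held 7 genes and leukocytes 3. With a pseudocount of 100, the median log2 ratios of whole lists were −4.10 for exocrine pancreas, −2.44 for liver and plasma, −0.79 for photoreceptor and retina, −2.02 for skeleton and connective tissue and −0.54 for leukocytes, and 1424 genes were at least 3-fold lower. Over listed genes with a GFP(−) value of at least 1000 the medians were −4.94 for liver and plasma, −5.01 for erythrocytes, −4.90 for photoreceptor and retina, −3.61 for skeleton and connective tissue and −2.71 for leukocytes. In that order these were 89, 13, 16, 58 and 23 genes, of which 58, 9, 11, 11 and 5 were among the 200. This minimum picks genes by the library in which they are high, which by itself lowers the medians, so they are a description only. With GFP(+) values of 48 or less set to 48 the exocrine pancreas median was −5.35. The share of the GFP(−) total held by the kept genes ranged from 15.6% for the first 100 genes to 21.3% for the first 400.

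After the data were seen, the limit was also set above 52.5, which clears the GFP(+) floor. Of the 200 genes 174 were kept, and the 26 that entered comprised 12 unassigned, 6 skeleton and connective tissue, 3 with no name, 2 liver and plasma and 1 each of endothelium, neuron and photoreceptor, down to a fold of 17.3. With GFP(+) values of 52.5 or less set to 52.5, 2505 genes in all were at least 3-fold lower. GFP(+) counts of 20 or fewer reads limit what can be told for the lowest genes: no fold beyond the bound could be measured there.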

Other observations

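Enzymes that break down small molecules formed a further group among the liver genes, chosen after their values were seen. The carboxylesterase genes ces2a and ces3, which stand next to each other in the genome, had 826 and 65.0 in GFP(+) cells and 41608 and 2881 in GFP(−) cells, and were 50.4-fold and 44.3-fold lower. Urate oxidase (uox) had 114 in GFP(+) cells and 4319.5 in GFP(−) cells, a fold of 37.9. DPYD and DPYS, successive enzymes of pyrimidine breakdown, were 28.6-fold and 24.6-fold lower. UROC1 and FTCD, of histidine breakdown, were 20.6-fold and 24.6-fold lower. AGXT, which detoxifies glyoxylate, was present in 2 copies at 58.0-fold (ENSDARG00000018478) and 27.0-fold (ENSDARG00000052099).

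Some unassigned genes are known from smooth muscle, endothelium or secreted signals. The smooth muscle actin gene acta2 had 181.5 in GFP(+) cells and 4443 in GFP(−) cells (24.5-fold), the stem cell and endothelial antigen gene cd34 had 70.0 in GFP(+) cells and 2062 in GFP(−) cells (29.5-fold), and the chemokine CXCL12 had 136.5 in GFP(+) cells and 2814 in GFP(−) cells (20.6-fold).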
